A study of Mus musculus with 22 samples.

Results

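The genes described here encode the cornified envelope of the epidermis and the enzymes and secreted proteins made with it. They were chosen by symbol in the table of normalized counts, as every gene whose symbol starts with Lce or Sprr together with Flg, Flg2, Ivl, Lor, Rptn, Hrnr, Crct1, Krtdap, Tchh, Perp, Klk5, Klk7, Tgm1, Tgm3 and Casp14. The rule took 53 genes of 46882 and used no measured value. RNA was read with QuantSeq, a library preparation that sequences each transcript near its 3′ end, in 16 libraries of the MC38 mouse colon carcinoma cell line, of tumors grown from it under the skin, and of normal skin. The question addressed was how much of the epidermal program each tumor library held, with the skin as the full level and the cultured cells as the background.

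MC38 cells labelled C57BL/6N and day 0 gave 2 libraries, and the labels do not say whether these were separate cultures. Skin of wild type C57BL/6N mice, 8- to 12-week-old and labelled day 23, gave 2 libraries. Tumors of MC38 cells injected under the skin of wild type C57BL/6N mice of 8 to 12 weeks were taken at day 23 and day 46, and tumors in B6.129S7-Rag1tm1Mom/J mice of the same ages, labelled RAG1-/-, at day 13 and day 23, with 3 libraries in each of these 4 groups. RAG1-/- hosts lack mature T and B cells. All tumors came from the same injected cell line, and RNA was made from a piece of each tumor, the rest of which went to other assays. The wild-type and RAG1-/- tumors share only day 23, so that genotype and time cannot be told apart between the other groups.

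The cornified envelope is the protein shell that replaces the plasma membrane when a keratinocyte reaches the top of the epidermis. Loricrin, involucrin, the small proline-rich proteins (SPRR) and the late cornified envelope proteins (LCE) are its building blocks, transglutaminases link them to each other, and filaggrin and its relatives of the S100 fused-type family bind keratin filaments below it. The kallikrein proteases Klk5 and Klk7 cut the junctions between dead cells so that these are shed. Most of the structural genes lie side by side in a cluster called the epidermal differentiation complex. LCE3 and several SPRR genes are known to be low in resting epidermis and to rise in injured skin.

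Of the 53 genes, 46 lay on chromosome 3 of GRCm38 between bases 92080271 and 93449077, the extent of the epidermal differentiation complex covered by these symbols. Krtdap, Klk5 and Klk7 lay on chromosome 7, Perp and Casp14 on chromosome 10, Tgm1 on chromosome 14 and Tgm3 on chromosome 2. The genes had more in common in their promoters than their place. RefSeq promoter sequences of the build GRCm38.p6, from 250 bases before to 50 bases after the start, were found for 47 of the 53. The letters ATAAA, starting within a window from 40 to 20 bases before the start together with the base ahead of them, stood on the gene's strand in 33 of these 47 promoters (70.2%) and in 4.20% of 32851 mouse promoters. The letters were chosen after the sequences had been seen. The base ahead of them differed by family, being A in 9 of 13 Lce1 promoters, G in 5 of 6 Lce3 promoters and T in 7 of 10 Sprr2 promoters. The sequences below run from base -45 to base -6 relative to the start, 5′ to 3′ on the gene's strand, with these 6 letters in capitals. They were picked from the 33 promoters with the letters in the window. Promoters without them there, such as those of Lce1a1, Lce3a and Sprr1a, are not shown. The likeness within families seen below therefore holds for the promoters shown and not for every member.

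Lce1b (chr3:92656932-92656971, minus strand): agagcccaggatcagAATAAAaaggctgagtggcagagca
Lce1c (chr3:92679202-92679241, plus strand): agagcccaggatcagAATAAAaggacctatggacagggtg
Lce1d (chr3:92687216-92687255, minus strand): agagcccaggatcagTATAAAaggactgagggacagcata
Lce1g (chr3:92752344-92752383, minus strand): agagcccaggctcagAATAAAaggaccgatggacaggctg
Lce1m (chr3:93019067-93019106, minus strand): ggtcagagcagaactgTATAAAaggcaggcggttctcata
Lce3c (chr3:92944441-92944480, plus strand): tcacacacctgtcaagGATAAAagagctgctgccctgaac
Lce3e (chr3:92967016-92967055, plus strand): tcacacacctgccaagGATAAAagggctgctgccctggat
Lce3f (chr3:92992172-92992211, plus strand): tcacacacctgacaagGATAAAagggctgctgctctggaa
Sprr1b (chr3:92438785-92438824, minus strand): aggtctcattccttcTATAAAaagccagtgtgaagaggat
Sprr2d (chr3:92339095-92339134, plus strand): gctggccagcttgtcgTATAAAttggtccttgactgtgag
Sprr2e (chr3:92352098-92352137, plus strand): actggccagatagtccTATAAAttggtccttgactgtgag
Sprr2h (chr3:92385640-92385679, plus strand): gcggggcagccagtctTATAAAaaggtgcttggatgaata
Rptn (chr3:93393654-93393693, plus strand): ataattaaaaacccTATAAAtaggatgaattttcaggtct
Lor (chr3:92083148-92083187, minus strand): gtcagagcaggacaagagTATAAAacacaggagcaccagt
Krtdap (chr7:30787860-30787899, plus strand): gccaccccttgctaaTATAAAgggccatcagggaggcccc

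Across the whole promoter window and on both strands, TATAAA was found in 44.7% of the 47 promoters and in 13.6% of all promoters, and TGANTCA, the AP-1 site, in 31.9% and 7.81%. AACNGGTT, a form of the grainyhead site, was found in 1 of 47 promoters (2.13%) and in 2.09% of all. Paralogs share sequence, so that these promoters are not independent of each other: over 250 bases without gaps, the promoters of Sprr2d and Sprr2e were 88.0% identical, those of Lce1g and Lce1i 85.6% and those of Sprr2a1 and Sprr2a2 100%. Other pairs within a family were far less alike, with 20% for Sprr2a1 and Sprr2b and 21.6% for Lce1k and Lce1m. A match is a description of the letters and not evidence of a site in use.

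Libraries held 5589151 to 26134241 reads on genes, and 1 read was worth 0.442 to 2.13 normalized counts. Values are normalized counts, reads per gene divided by the size factor of the library, and since each transcript is read at its 3′ end they are not scaled by length. All floors and intervals cover counting error only. Rag1 itself had 1 to 12 reads in each of the 6 tumors labelled RAG1-/- and 1 read each in 1 wild-type tumor and 1 skin library, and 3′ reads may lie outside the deleted sequence, so the labels are used as given.

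In skin the 53 genes together took 2.69% and 2.07% of the reads of the 2 libraries, 308175 and 238918 reads. At least 1 skin library held a read of 49 of them, and 47 had a mean above 5 normalized counts, which are the genes on which the percentages of skin below rest. The remaining 6 were Sprr2j-ps and Sprr2k, with 2 reads each, and Sprr3, Sprr2a1, Sprr2a2 and Sprr2c-ps with no read in skin. Sprr3 is a small proline-rich gene known from internal stratified epithelia. Sprr2a1 and Sprr2a2 end in sequence found in other genes for 100% of the 50-base words in their last 300 bases and Sprr2a3 for 80.1%, so that the counts of these 3 copies cannot be told apart. Shorter stretches were shared by 19 of the 53 genes in all, 10 of them Lce1 genes, while 34 shared none.

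**Figure D1:**
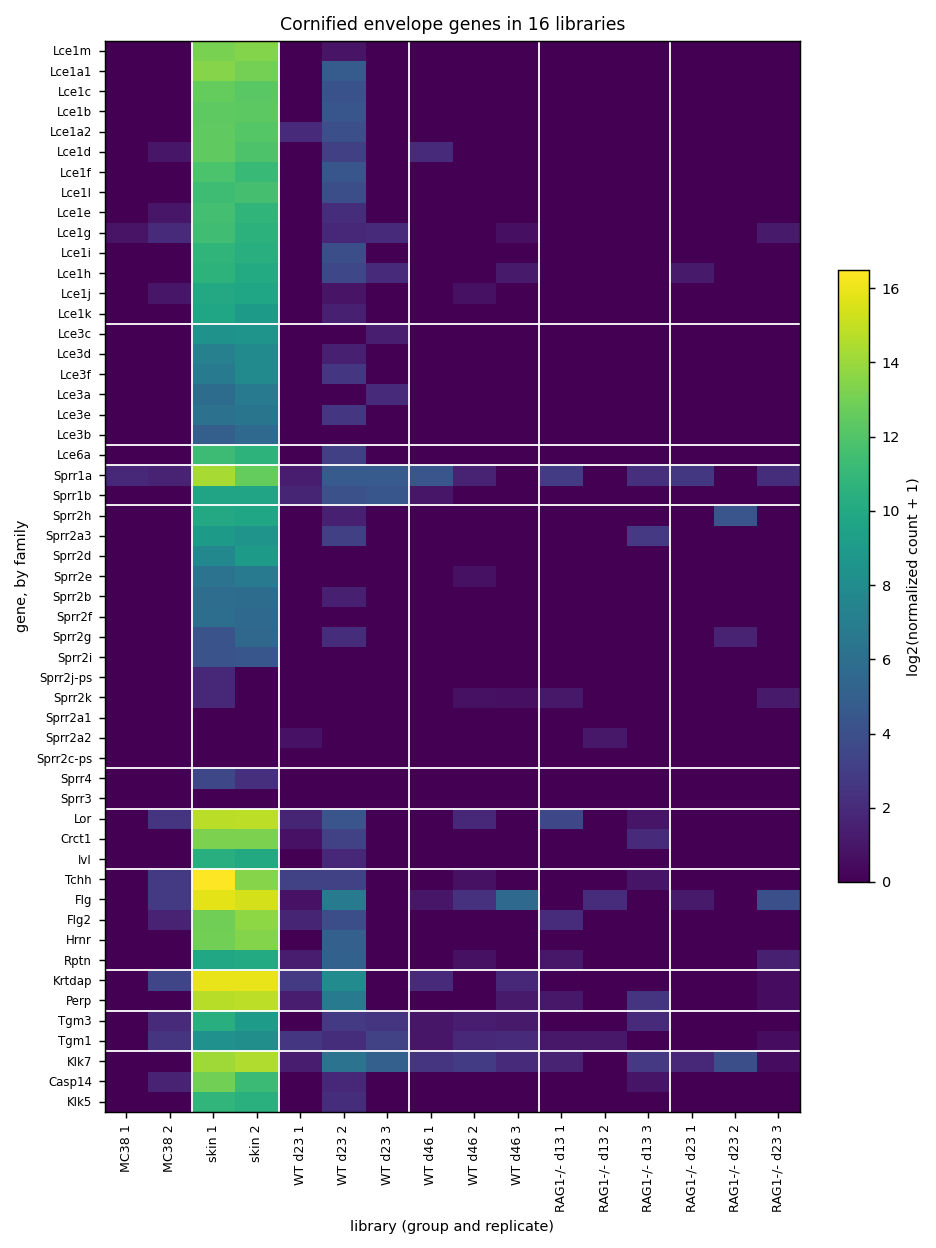
Level of each of the 53 cornified envelope genes (rows, ordered by family and skin level, white lines between families) in the 16 libraries (columns, grouped by sample group), as log2(normalized count + 1) on the color scale. The 2 skin columns are bright in nearly all rows, the wild-type tumor of day 23 replicate 2 (WT d23 2) is the only tumor column with color in most rows, and the other tumor and MC38 columns hold scattered single genes.

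The building blocks of the envelope stood at very different levels. Lor, which encodes loricrin, the main component of the envelope, stood at 28652 and 29471 normalized counts in skin (29062 ± 579, SD, n = 2). Ivl, encoding involucrin, an early scaffold of the envelope, stood much lower at 1285 and 1048, and Crct1, a small cysteine-rich protein gene, at 9593 and 9448. The 14 Lce1 genes ran from 681 ± 242 for Lce1k to 10016 ± 1252 for Lce1m and 9994 ± 2138 for Lce1a1 (SD, n = 2). The 6 Lce3 genes stood lower, from 39.6 for Lce3b to 356 for Lce3c, and Lce6a at 2079. The Lce1 genes summed to 60463 and 49919 normalized counts, and the Lce3 genes to 757 and 1075.

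Among the small proline-rich genes Sprr1a was highest, at 20664 in skin replicate 1 and 6027 in replicate 2 (13346 ± 10350). Its neighbor Sprr1b stood at 790 and 803. The Sprr2 genes ran from 18.9 for Sprr2i to 928 for Sprr2h among the 8 with a mean above 5. Sprr4 was at the edge of detection, with 10.7 and 3.82 normalized counts against floors of 4.02 and 3.82.

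Of the S100 fused-type genes Flg and Tchh had the highest means of the structural genes in skin. Flg, encoding profilaggrin, from which filaggrin is cut, stood at 57662 and 44756 (51209 ± 9126, SD, n = 2), Flg2 at 7774 and 13217, and Hrnr, encoding hornerin, at 8186 and 10967. Rptn, encoding repetin, stood at 938 and 1063. Tchh, encoding trichohyalin, a protein of the inner root sheath of the hair follicle, stood at 91458 in replicate 1 and 11383 in replicate 2, so that its mean of 51420 ± 56622 describes neither library.

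Of the enzymes and secreted proteins, Krtdap, a peptide gene of differentiating keratinocytes, was the highest of all members at 63707 and 63372 (63540 ± 237) and stood at place 12 among all genes in skin. Perp, a membrane protein of desmosomes, stood at 28313 ± 2270 and Klk7 at 21049 ± 3912 (SD, n = 2). Klk5, which activates Klk7, stood at 1649, and Casp14, the caspase of cornification, which acts on filaggrin, at 7863 and 2425. The cross-linking enzymes stood at 320 and 286 normalized counts for Tgm1 and at 1319 and 535 for Tgm3.

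The 2 skin libraries differed in hair follicle genes far more than in most envelope genes. Over the 46 members above 5 normalized counts in both libraries the median ratio of replicate 1 to replicate 2 was 1.09, with 27 genes higher in replicate 1 and 19 in replicate 2, and 7 genes (15.2%) differed over 2-fold, against 12.9% of all genes above this level. The 7 hair follicle markers in the table (Krt71, Krt25, Krt27, Krt28, Krt35, Padi3 and Hoxc13) were 4.67- to 13.4-fold higher in replicate 1, with a median of 11.2, and the 5 basal keratinocyte markers had ratios of 0.539 to 1.06. The 4 suprabasal keratinocyte markers were less even, from 0.428 for Krt77 to 3.42 for Krt2. Sebaceous gland markers ran from 1.33 to 2.10, melanocyte markers from 2.28 to 4.80 and skeletal muscle markers from 0.620 to 1.55. Tchh moved with the follicle markers, with a ratio of 8.03, and the next largest ratios were those of Sprr1a (3.43), Casp14 (3.24) and Tgm3 (2.46). All 6 Lce3 genes were lower in replicate 1 (0.498 to 0.938), and 12 of the 14 Lce1 genes were higher in it (median 1.34). These ratios compare 2 libraries, and the part of follicle content in them was not tested.

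**Figure D2:**
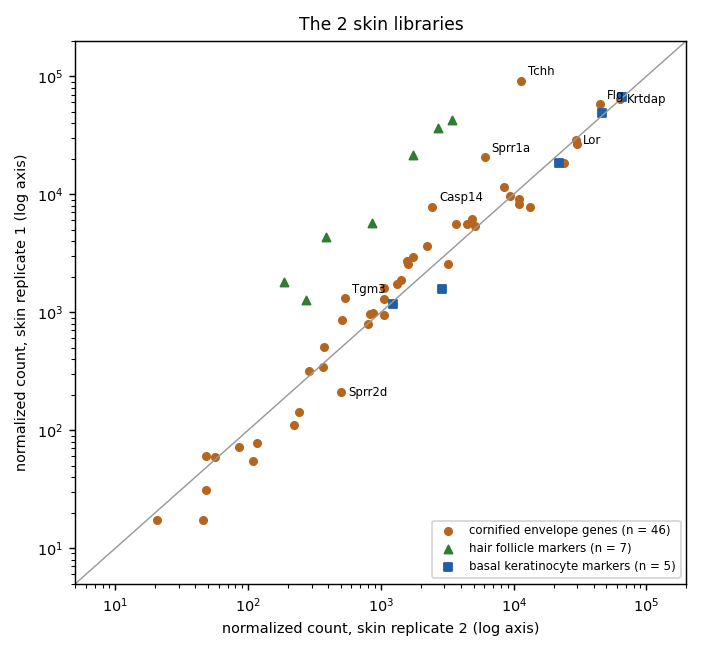
Normalized count in skin replicate 1 (vertical, log axis) against skin replicate 2 (horizontal, log axis) for 46 cornified envelope genes (circles), 7 hair follicle markers (triangles) and 5 basal keratinocyte markers (squares), with the line of equality. Most circles and all squares lie near the line, while the triangles lie 4.67- to 13.4-fold above it and Tchh lies with them.

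MC38 cells were nearly devoid of these transcripts. MC38 replicate 1 held 4 reads over 2 of the 53 genes, 3 of Sprr1a and 1 of Lce1g, and replicate 2 held 47 reads over 13 genes. The highest in replicate 2 were Krtdap with 9.78 normalized counts, Flg and Tchh with 5.87 each, and Lor and Tgm1 with 4.89 each, all at 0 in replicate 1. Summed over the members the level was 3.42 and 45.9 normalized counts, 0.000954% and 0.0128% of the skin mean. In no gene did the mean of the MC38 libraries pass 5. These values are the background against which the tumors are read, and replicate 2 alone held nearly all of the background reads.

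Skin stood above MC38 in every member that could be tested. With limma on log2(normalized count + 1), genes with a mean of at least 5 over the libraries of the fit and Benjamini-Hochberg adjustment, 46 of 46 tested members were higher in skin, against 41.2% of all 16780 genes tested. The median log2 difference was 10.45 over the members and 0.40 over all genes. The differences ran from 4.31 ± 0.43 (SE) for Sprr2i to 14.79 ± 0.20 for Perp, and the adjusted p was at most 0.00226, for Tgm1 (6.97 ± 0.89). The other 7 members were too low to be tested. No MC38 mean passed 5, so all 46 tested members passed the filter through skin, the group in which they are high. The filter thus fixed their direction but not the size of the differences, and the count of 46 is only a description. Among the 10 members highest in skin, the log2 difference was 14.24 for Krtdap (SE 1.11, adjusted p 0.000533), 13.59 for Tchh (SE 1.32, adjusted p 0.00101), 14.24 for Flg (SE 0.91, adjusted p 0.000319) and 13.55 for Lor (SE 0.84, adjusted p 0.000297). Klk7 (14.35 ± 0.24), Perp, Lce1m (13.28 ± 0.24) and Lce1a1 (13.27 ± 0.27) each had an adjusted p of 7.15e-05, Sprr1a (11.75 ± 0.61) of 0.000198 and Flg2 (12.53 ± 0.60) of 0.000173. Fitted differences of genes without an MC38 read depend on the pseudocount of 1. Against a floor of 3 reads per MC38 library, Perp was at least 9654-fold, Klk7 at least 7177-fold, Lce1m at least 3415-fold, Lce1a1 at least 3408-fold, Hrnr at least 3265-fold and Crct1 at least 3246-fold higher in skin.

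Other genes of the barrier, not members, were also higher in skin. Of a list of 36 genes of barrier lipids, desmosomes, proteases, their inhibitors and regulators, 35 were tested. All 35 were higher in skin, against 41.2% of all 16780 genes tested, with a median log2 difference of 9.44 over the list. A listed gene low in MC38 passed the filter through skin, which fixed its direction. The list was written with results of these data known, so the count of 35 is only a description.

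In the tumors the members stood far below skin. Both genotypes were lower than skin in 44 of 44 members tested, with median log2 differences of -10.28 (wild-type) and -10.74 (RAG1-/-). Of all 16259 genes tested, 34.2% were lower in the wild-type and 35.9% in the RAG1-/- tumors. Over the tumors only Flg, Klk7, Krtdap, Perp and Sprr1a averaged above 5 normalized counts, so the other tested members passed the filter through skin. The filter thus fixed their direction but not the size of the differences, and the count of 44 is only a description. The 2 comparisons share the skin libraries. In a bulk sample fewer epidermal cells and less RNA per cell cannot be told apart.

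Summed over the members, the wild-type tumors of day 23 held 36.9, 906 and 101 normalized counts and those of day 46 held 34.2, 22.8 and 62.2. The RAG1-/- tumors held 26.7, 5.56 and 28.6 at day 13 and 10.5, 36.2 and 25.2 at day 23. Replicate 2 of the wild-type tumors of day 23 stood apart from the 11 other tumors, and 9 of the 12 tumors lay below the 45.9 of MC38 replicate 2. As a share of skin this tumor was at 0.253%, and the others ran from 0.00155% to 0.0283%. By group the share was 0.0971% ± 0.135 for wild-type day 23, 0.0111% ± 0.00564 for wild-type day 46, 0.00566% ± 0.00357 for RAG1-/- day 13 and 0.00668% ± 0.00359 for RAG1-/- day 23 (SD, n = 3 each). Without that tumor the mean of the wild-type day 23 group was 0.0193%. No test was made of these sums.

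**Figure D3:**
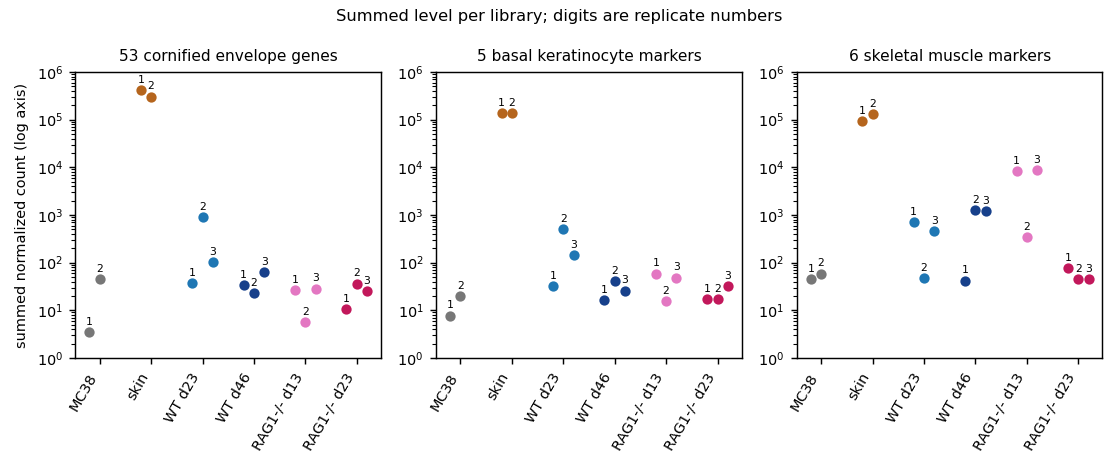
Summed normalized count per library (points, log axis, digits giving the replicate) for the 53 cornified envelope genes, 5 basal keratinocyte markers and 6 skeletal muscle markers, by sample group. The wild-type tumor of day 23 replicate 2 is the highest tumor for the envelope genes (906) and for the basal keratinocyte markers (503), but stands at the MC38 level for muscle, where RAG1-/- day 13 replicates 1 and 3 are highest.

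The wild-type tumor of day 23 replicate 2 held 1063 reads of the members, of 39 of the 47 genes that were above 5 in skin. The other 11 tumors held 5 to 99 reads, of 3 to 14 of the 53 genes. The median member stood in it at 0.250% of its skin level, close to the 0.253% of the sums. The 8 members without a read would together have held about 3.0 reads at that share. Krtdap had 283 reads there, Perp 137, Flg 121 and Klk7 90.

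Keratinocyte markers moved with the members in that tumor. The 5 basal keratinocyte markers Krt5, Krt14, Krt15, Trp63 and Col17a1 were all read there and summed to 503 normalized counts, 0.367% of skin, against 15.6 to 146 in the other tumors and 7.70 and 19.6 in MC38. Krt5 stood at 136 and Krt14 at 330, and Krt1, a keratin of the layers above, at 113 with 0 and 1.96 in MC38. Krt10 could not serve as a marker here, since MC38 cells themselves held 304 and 291 normalized counts of it. The list of 4 suprabasal markers (Krt1, Krt10, Krt2 and Krt77) summed to 1169 in this tumor, 0.680% of skin, and 3 of the 4 were read. It summed to 221 to 570 in the other tumors and to 304 in each MC38 library. These sums include Krt10, so they do not measure keratinocytes alone. The hair follicle markers stood at 27.3 in this tumor and at 39.4 and 42.0 in MC38. Since the skin libraries held 113551 and 9599 of them, the share of the members would have given 249 with skin replicate 1 as the reference and 28.6 with replicate 2. Both values leave out the level of the cells, which alone was above the 27.3 of the tumor. No follicle signal above that of MC38 was thus seen with either reference, and whether it fell short was not tested. The skeletal muscle markers stood at 47.7, with 44.5 and 58.7 in MC38, where that share would have given 282. The 2 RAG1-/- tumors of day 13 with 8411 and 8623 normalized counts of muscle markers held only 26.7 and 28.6 of the members.

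Ddx3y, a gene of the Y chromosome, was at 1803 and 1919 normalized counts in skin and had at most 1 read in any tumor or MC38 library. At the share of the members the wild-type tumor of day 23 replicate 2 would have held 5.51 reads of it, and it held 0. The tumor hosts were female, so that skin of the host would hold no Ddx3y at any share, and the 0 reads say nothing of it. Both skin libraries held reads of this Y chromosome gene, so the skin used as reference differed in sex from the tumor hosts.

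Within that tumor the members did not keep the proportions of skin. For each of the 39 genes an exact Poisson interval of its reads (95%) was set against the share of the sums, with the skin mean taken without error. The interval lay above 0.253% for 16 genes, below it for 7 and held it for 16. With either skin library alone as the reference 13 genes stayed above and 5 stayed below, and Lce1b, Lce1l, Sprr1a, Flg2, Hrnr, Klk7, Tgm3 and Casp14 changed position with the library used.

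The highest shares among the genes read were those of members with low levels in skin, where a single read is a large share. Sprr2g stood at 10.8% of skin (4 reads, 2.94% to 27.6%), Lce3e at 6.48% (6 reads, 2.38% to 14.1%), Rptn at 3.41% (40 reads, 2.43% to 4.64%) and Lce3f at 3.06% (6 reads, 1.12% to 6.66%). Sprr1b was at 2.03% (19 reads, 1.22% to 3.17%) and Sprr2a3 at 1.74% (9 reads, 0.795% to 3.30%), although its copies cannot be told apart. Of their relatives without a read, Lce3c and Sprr2d could have stood at no more than 0.719% and 0.718% (the limit that 0 reads allow), and Lce3a, Lce3b, Sprr2e, Sprr2f, Sprr2i and Sprr4 had limits of 2.64% or more. Sprr1a, the neighbor of Sprr1b, stood at 0.192% (30 reads, 0.129% to 0.274%). Krtdap (0.380%) and Perp (0.412%) lay above the common share by far less.

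Below the common share lay Lce1m, Lor, Crct1, Flg and Tchh with each reference, and Flg2 and Casp14 with the mean. Lce1m, among the highest Lce genes of skin, had 1 read where 29.7 would have matched the common share, while Lce1a1 at the same skin level had 32 reads and stood at 0.273%. Lor had 23 reads instead of 86.1, 0.0675% of skin (0.0428% to 0.101%), and Crct1 stood at 0.0895%. Tchh had 10 reads, where the common share would have given 235.5 with skin replicate 1 as the reference and 39.7 with replicate 2. Flg lay a little below, at 0.201% (0.167% to 0.241%). By family, Krtdap and Perp took 39.5% of the member reads of this tumor against 21.9% and 30.6% in the skin libraries, the S100 fused-type genes 21.2% against 40.2% and 26.7%, and Lor, Ivl and Crct1 3.39% against 9.58% and 13.1%. These are the counts of 1 library, with no replicate.

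**Figure D4:**
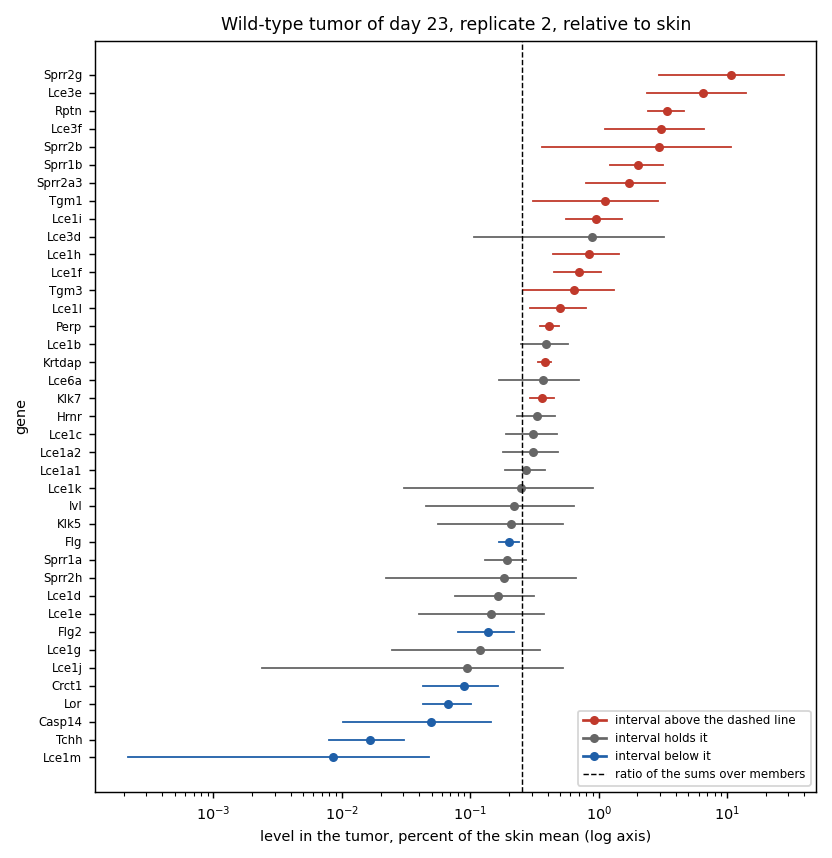
Level of 39 cornified envelope genes in the wild-type tumor of day 23 replicate 2 as percent of the skin mean (horizontal, log axis), with 95% exact Poisson intervals for the reads of the tumor. The dashed line marks the ratio of the sums, 0.253%, and 16 genes lie above it, led by Sprr2g, Lce3e and Rptn, and 7 below it, with Lce1m and Tchh lowest.

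The other tumors held few reads, spread over several members in some and mostly of 1 gene in others. Replicate 1 of wild-type day 23 held 50 reads of 14 members, with Tchh (11 reads), Krtdap (8) and Tgm1 (7) first. Replicate 3 of RAG1-/- day 13 held 30 reads of 9 members, none with more than 6, and replicate 1 of that group 25 reads of 8, 10 of them of Lor. Replicate 3 of the wild-type tumors of day 23 had 64 reads, of Klk7 (31.7 normalized counts), Sprr1a (25.4), Sprr1b (20.6), Tgm1 (7.92) and 5 other genes, but none of Krtdap, Flg, Lor or Perp. Of the basal keratinocyte markers this tumor held Krt14 (132) and Trp63 (14.3), and Krt5, Krt15, Col17a1 and Krt1 were at 0, where 3 reads would have been 4.75. Replicate 3 of wild-type day 46 held 77 reads of Flg, 48.3 normalized counts and 77.8% of its member reads, with none of Hrnr, Flg2 or Lor. Replicate 3 of RAG1-/- day 23 likewise held 35 of its 57 member reads in Flg (15.5), and replicate 2 of that group held 9 of its 17 in Sprr2h. Replicate 1 of wild-type day 46 held 20 of its 35 in Sprr1a (19.5).

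Over the 12 tumors the 10 highest members were Krtdap (mean 21.1), Flg (14.8), Klk7 (12.5), Perp (10.5), Sprr1a (7.75), Sprr1b (3.33), Rptn (3.26), Lor (3.01), Hrnr (2.63) and Lce1a1 (2.27). The order rested on replicate 2 of wild-type day 23: without it Flg (6.75), Klk7 (6.70) and Sprr1a (6.13) came first and Krtdap fell to 1.07, Perp to 0.819 and Rptn to 0.453. Hrnr and Lce1a1 were read in that tumor only, and Klk7 in 11 of the 12. In all, 9 members were read in no tumor, 20 in a single tumor and 6 in at least 6 tumors. As a share of skin the median member was at 0.0307%, and Sprr2g (1.46%), Tgm1 (0.713%), Lce3e (0.540%), Sprr1b (0.418%), Rptn (0.326%) and Lce3a (0.321%) were over 10 times that. Sprr2k was also over this limit, with 1 to 3 reads in 4 tumors and 2 reads in skin. Tgm1 was read in 9 tumors, never above 7.92 normalized counts, and had 5 reads in MC38 replicate 2.

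Between the tumors and MC38, 5 members passed the filter on low values, Flg, Klk7, Krtdap, Perp and Sprr1a, and the filter itself depended on replicate 2 of wild-type day 23. Without that tumor Krtdap averaged 1.07 and Perp 0.819 normalized counts over the other 11, under the limit of 5, while Flg (6.75), Klk7 (6.70) and Sprr1a (6.13) stayed above it. Krtdap and Perp were thus admitted by the library in which they are high. Flg, Klk7 and Sprr1a averaged 3.35, 4.30 and 3.17 over the RAG1-/- tumors and under 5 in MC38, so they passed the filter through the wild-type tumors. For all 5 members the differences below that involve the wild-type tumors are given as descriptions and support no difference between groups. Klk7, the protease of shedding, stood at 1.48, 76.7 and 31.7 in the wild-type tumors of day 23 and at 4.89, 6.71 and 3.14 at day 46. In the RAG1-/- tumors it stood at 2.14, 0 and 5.72 at day 13 and at 2.62, 14.9 and 0.442 at day 23. Both MC38 libraries had 0 reads, with floors of 2.57 and 2.93. Every wild-type tumor held reads of Klk7, but the 1.48 of day 23 replicate 1 lay below both floors. Every RAG1-/- tumor other than day 13 replicate 2 held reads of it too. Klk7 was the 1 of 5 members called higher in wild-type tumors than in MC38, with a log2 difference of 3.36 ± 1.13 (SE) and a limma adjusted p of 0.0347, against 18.3% of 14708 genes called higher and 9.61% lower. The call did not hold without single libraries, while the difference stayed of like size. Without wild-type day 23 replicate 2 the log2 difference was 2.84 (adjusted p 0.0710), without its replicate 3 it was 3.16 (adjusted p 0.0654), and without wild-type day 46 replicate 2 it was 3.25 (adjusted p 0.0589). Without MC38 replicate 1 or 2 it was 3.36, with an adjusted p of 0.169 and 0.179. An exact two-sided permutation test of the mean of 20.8 ± 29.6 (SD, n = 6) against 0 (n = 2) gave p = 0.286, with 0.0357 the smallest this design allows.

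In RAG1-/- tumors 0 of the 5 members were called against MC38, where 15.8% of genes were higher and 7.55% lower, and 0 had an unadjusted p under 0.05 with limma and edgeR and 1 with DESeq2, which gave no p for Flg and Perp in any comparison among tumors and with MC38. By unadjusted p the first were Klk7 (log2 difference 1.80, 95% interval -0.60 to 4.19, adjusted p 0.285), Krtdap (-1.63, -4.71 to 1.46, adjusted p 0.472) and Perp (0.68, -2.19 to 3.56, adjusted p 0.775, all limma). Krtdap was at 0 in 5 of the 6 RAG1-/- tumors and at 0.442 in the other, below the 9.78 of MC38 replicate 2. The comparisons of both genotypes share the MC38 libraries.

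Between wild-type and RAG1-/- tumors no member passed the threshold. Krtdap stood at 5.90, 241 and 0 in wild-type tumors of day 23 and at 2.93, 0 and 2.51 at day 46, against 1 read in the 6 RAG1-/- tumors. The wild-type values spanned all those of the RAG1-/- tumors. With limma 0 of 5 members were called over all time points, against 0.712% of 14746 genes, and 1 had an unadjusted p under 0.05, with 2 under it in edgeR and in DESeq2 and 0 called in either. The log2 differences were 2.33 for Krtdap (SE 1.03, adjusted p 0.405), admitted by the library that holds 241 normalized counts, 1.57 for Klk7 (-0.19 to 3.32, adjusted p 0.499) and 1.51 for Flg (-0.91 to 3.94, adjusted p 0.657). Klk7 and Flg also passed the filter through the wild-type tumors, so that these values support no difference between the genotypes. The exact permutation p was 0.0606 for Krtdap, with 42.1 ± 97.6 against 0.0736 ± 0.180 (SD, n = 6 each), and 0.00216 is the smallest that 6 against 6 allow.

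At day 23, which both genotypes share, 0 of 5 members were called with limma against 0.278% of genes, with 1, 3 and 2 unadjusted p under 0.05 in limma, edgeR and DESeq2. Krtdap differed by 3.39 on the log2 scale (SE 1.46, adjusted p 0.409), Perp by 2.55 (-0.46 to 5.57, adjusted p 0.536) and Klk7 by 2.08 (-0.40 to 4.56, adjusted p 0.539). With 3 against 3 tumors no exact permutation p can go below 0.1, and those of Krtdap, Perp and Klk7 were 0.4, 0.4 and 0.3. Perp stood at 1.48, 117 and 0 against 0, 0 and 0.442, so that the 1 tumor through which Krtdap and Perp entered the test also carried their differences. Klk7 too had passed the filter through the wild-type tumors.

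With time, 0 of 5 members were called between day 46 and day 23 in wild-type tumors, and 0 of 5 between day 23 and day 13 in RAG1-/- tumors, where 0% of genes were called by limma in either comparison. The unadjusted p was under 0.05 for 0 members with limma, 3 with edgeR and 1 with DESeq2 in the wild-type tumors, and for 0 with each tool in the RAG1-/- tumors. In wild-type tumors the log2 differences were -2.34 for Perp (-5.36 to 0.68, adjusted p 0.673), -2.31 for Krtdap (-5.42 to 0.80, adjusted p 0.681) and -1.69 for Klk7 (-4.17 to 0.79, adjusted p 0.716). The sign for Perp and Krtdap follows from their admission through a tumor of day 23. In RAG1-/- tumors they were -1.02 for Perp (adjusted p 0.839), 1.04 for Flg (adjusted p 0.860) and 0.66 for Klk7 (adjusted p 0.881), and the sign of the last 2 turned when 1 tumor was left out. The difference between the 2 time contrasts was called for 0 of 5 members with limma, edgeR and DESeq2 (0% of genes with limma), with 0, 0 and 1 unadjusted p under 0.05, and its intervals were wide, from -5.86 to 1.16 for Klk7.

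Some of the other barrier genes stood above MC38 in the tumors. The list was written with earlier results known, and a gene low in MC38 passes the filter only through the tumors. The counts and calls that follow are therefore descriptions, and those without the wild-type tumor of day 23 replicate 2 are not given here. Of the 36 listed, 16 were high enough to be tested in the tumors, 7 were higher in wild-type tumors than in MC38 and 0 lower, and 5 were higher and 1 lower in RAG1-/- tumors, by limma, beside 18.3% higher and 9.61% lower of all genes in the former and 15.8% and 7.55% in the latter. S100a16, a calcium-binding protein gene, was higher in both (log2 differences 4.66 and 4.12, adjusted p 1.21e-06 and 6.49e-06), as were Klk8, a further kallikrein, and Pkp1 and Jup of the desmosome. S100a14 and Sbsn, the gene of suprabasin, were called in the wild-type tumors alone, and the difference between the genotypes was not called for any of the 16. Klf4, a transcription factor of barrier formation, stood at 2083 and 1953 in MC38 and was lower in RAG1-/- tumors (-0.54, adjusted p 0.0465). Spink5, the inhibitor of Klk5 and Klk7, stood at 68.2 in the wild-type tumor of day 23 replicate 2 and at 0 to 4.89 elsewhere in the tumors and MC38.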

How the data were processed

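RNA of MC38 cells, tumors and skin was read from the 3′ end with QuantSeq on an Ion Proton. The authors trimmed the reads with cutadapt and Trimmomatic, aligned them to mm10 with STAR and then Bowtie2, counted them with HTSeq and deposited normalized counts (a signal), reads per gene divided by a size factor of the library; DESeq2 is among the tools in their processing notes. Tool versions, annotation and the strand setting were not given in the sources used here. For multi-mapping reads the primary alignment was kept, and rRNA reads were removed. Dividing each library by its smallest step gave whole reads for 100% of the values within a tolerance of 0.02.

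Of 22 samples, 16 were used, with 5589151 to 26134241 reads on genes. The other 6, in the table of antibody-treated tumors, were not used. Libraries were grouped by their labels. Values were compared on log2(normalized count + 1) with limma 3.58.1 (R 4.3.3) with a mean-dependent trend, over all genes with a mean of at least 5 in the libraries of the fit, in separate fits of MC38 with skin, of the 12 tumors alone, of the tumors with MC38 and of the tumors with skin, Benjamini-Hochberg adjusted over all genes tested and called at 0.05. edgeR 4.0.16 and DESeq2 1.42.0 on the recovered reads, other pseudocounts (0.1 and 5), filters, scalings, a fit without trend, a block for the replicate number and each library left out were the alternatives. The named members were set against each other between groups by an exact permutation of the libraries, two-sided (scipy 1.17.1). The scripts were tested on simulated data. Intervals are exact Poisson intervals at 95%, and the floor is 3 reads.

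Percentages of skin are relative to the mean of the skin libraries. Named with full statistics were the 10 members highest in skin, the 10 highest over the tumors, members called in a tumor comparison or else the 3 with the smallest p, and members over 10 times the median percent of skin. The members and lists were chosen with earlier results of these data known. Promoters came from RefSeq (GRCm38.p6), positions and shared 3′ sequence from GENCODE on GRCm38, the assembly of mm10. The labels do not say that libraries of a group came from separate cultures or animals, so p-values measure the spread between these libraries. No pairing of libraries by replicate number was seen. Deviations from group means correlated from -0.236 to 0.246 between same-numbered tumors and from -0.213 to 0.201 between differently numbered ones. So few libraries per group cannot exclude a pairing.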

Additional observations from a re-analysis of the deposited data

Results flagged for a closer look

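In groups of 6 tumors, 12 sets of values were examined for a single library far from the others (Dixon's ratio above 0.625). Normally distributed values pass this limit in about 1 of 20 groups. That rate does not hold for low counts with many zeros like these, so the flags are descriptions. Replicate 2 of the wild-type tumors of day 23 stood apart among the wild-type tumors in the summed level of the members (906 normalized counts), in Krtdap (241) and in Perp (117). Among the RAG1-/- tumors, replicate 3 of day 23 stood apart in Flg (15.5) and in Krtdap (0.442, which is 1 read, with 0 in the other 5), and replicate 3 of day 13 in Perp (4.76). The values for Krtdap and Perp in RAG1-/- tumors rest on 1 and 5 reads.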

How the results depend on the processing

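Skin against MC38 kept 40 to 47 members called over the alternatives, and the tumors against skin 36 to 48 (wild-type) and 35 to 48 (RAG1-/-), all in 1 direction, with 40 to 46, 40 to 45 and 40 to 45 when 1 library was left out. Flg, Krtdap, Lor, Tchh, Tgm1 and Tgm3 lost the call against MC38 without either skin library, where the lone library is assumed to vary like MC38. Under DESeq2 the tumors against skin gave 36 and 35 members of 44, with no p for Flg, Krtdap and Perp and an adjusted p over the threshold for Lce3a, Lce3b, Lce3e, Lce3f and Sprr2a3 in both and Sprr2h in the RAG1-/- tumors. The single call in wild-type tumors against MC38 (1) became 0 with a pseudocount of 5, a mean of at least 20 (no member tested) and no trend, and ran from 0 to 1 with 1 library left out. With no filter Klk7 had an adjusted p of 0.0698, and Sprr1b was called instead (1.87 on the log2 scale, adjusted p 0.0426). The other counts between tumors stayed at 0.

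Without RAG1-/- day 23 replicate 3 the time difference of Flg was -0.10 (range -0.10 to 1.92 with 1 library left out). That of Klk7 was -0.27 without day 23 replicate 2 and -0.07 without day 13 replicate 2 (range -0.27 to 1.46). Krtdap in RAG1-/- tumors against MC38 ran from -3.34 to 0.088, the latter without MC38 replicate 2. With the mean of MC38 subtracted, the summed percent of skin was 0.00419 for wild-type day 46, -0.00122 for RAG1-/- day 13 and -0.000206 for RAG1-/- day 23. Without this subtraction and with 1 library left out, the summed percent ran from 0.0193 to 0.140 for wild-type day 23. For wild-type day 46 the unsubtracted percent ran from 0.00795 to 0.0134. It ran from 0.00450 to 0.00771 for RAG1-/- day 13 and from 0.00497 to 0.00855 for RAG1-/- day 23. The causes were not tested.

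The replicate number as a block changed no count: 46 members in skin against MC38, 44 in both tumor groups against skin, 1 in wild-type tumors against MC38 (Klk7, adjusted p 0.0478) and 0 in the others. In most tumors a member rests on a few reads, so that levels under 1.33 to 6.38 normalized counts, 3 reads, were not detectable.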
